A study of Mus musculus with 9 samples.

Results

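The AP-1 and EGR immediate-early genes were compared between hepatic stellate cells (HSCs) of normal mouse liver and activated fibroblasts of fibrotic liver. The 10 genes were picked by symbol, with earlier results of these data known, as were all gene lists below. They were Fos, Fosb, Fosl1 and Fosl2 of the FOS family and Jun, Junb and Jund of the JUN family. The others were the zinc finger genes Egr1 and Egr2, and Atf3. All 10 had a row among the 24453 genes of the deposited table. Of these, 9 passed the filter on low values that kept 13651 genes for testing, and Fosl1 did not.

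RNA sequencing covered 3 libraries per group, each made from amplified RNA of cells pooled from 3 to 5 C57BL/6J-background mice. HSCs, the vitamin A-storing pericytes of the liver sinusoid, were separated by a density gradient from livers of wild-type mice that received no treatment. CCl4-fib were sorted from Col1a2-GFP Tg mice, in which the collagen α2(I) promoter drives green fluorescent protein, after injection of the hepatocyte toxin CCl4 at 1 ml/kg, 2 times per week over 8 weeks. NASH-fib were sorted from male MC-COL mice, which carry the same transgene and lack the melanocortin 4 receptor (MC4R-KO), after a Western diet for 20 weeks that began at 8 weeks of age. The ages of the HSC and CCl4-fib mice were not given in the sources used here. Both fibroblast groups were taken as CD45- GFP+ cells by flow cytometry, so their membership rests on activity of the Col1a2 promoter fragment. HSCs went through no sort and no antibody staining, although all 3 preparations began with collagenase digestion. Genotype, treatment and isolation therefore changed together between HSCs and either fibroblast group, and their parts cannot be told apart. CCl4-fib and NASH-fib were isolated in the same way and differed in genotype, diet and injury.

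Immediate-early genes are transcribed within minutes of a growth factor, cytokine or stress signal by factors already present in the cell, such as SRF with its ELK partners and CREB. FOS proteins cannot pair with one another and bind DNA as heterodimers with JUN proteins, forming AP-1, whereas JUN proteins can also pair among themselves. EGR1 and EGR2 bind GC-rich sites through zinc fingers, and ATF3 is a stress-induced basic leucine zipper protein that pairs with JUN proteins. In liver, these genes are known for their rapid induction after partial hepatectomy and in stellate cells exposed to growth factors or culture, and they are also known to be induced while tissues are digested.

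The bases before the annotated start are shown for the 7 genes with a sequence that were called higher in the fibroblasts below, to set the motifs of the signal-dependent factors beside the genes that moved. Each line gives the 120 bases upstream of the RefSeq start on the gene's own strand (build GRCm38.p6, that is mm10), with motif matches in capitals. Capitals mark the CRE half-site TGACG on either strand, the TATA box in Fos, the EGR site GCGGGGGCG in Fosb and Fosl2, the TGACATCA site in Jun, the CArG box in Egr2 and the TTACGTCA site in Atf3, whose last bases are also a half-site on the other strand.
Fos (chr12:85473770-85473889, plus strand): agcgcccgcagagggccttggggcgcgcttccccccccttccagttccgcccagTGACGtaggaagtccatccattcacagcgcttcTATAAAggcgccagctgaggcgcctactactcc
Fosb (chr7:19310046-19310165, minus strand): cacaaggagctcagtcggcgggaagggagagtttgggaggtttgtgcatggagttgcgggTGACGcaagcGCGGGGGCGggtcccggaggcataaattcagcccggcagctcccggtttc
Fosl2 (chr5:32136352-32136471, plus strand): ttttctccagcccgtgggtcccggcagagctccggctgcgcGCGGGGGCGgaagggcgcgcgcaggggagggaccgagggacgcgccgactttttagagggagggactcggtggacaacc
Jun (chr4:95052223-95052342, minus strand): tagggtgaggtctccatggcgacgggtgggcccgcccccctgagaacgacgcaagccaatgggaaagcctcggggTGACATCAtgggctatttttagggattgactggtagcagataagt
Junb (chr8:84978749-84978868, minus strand): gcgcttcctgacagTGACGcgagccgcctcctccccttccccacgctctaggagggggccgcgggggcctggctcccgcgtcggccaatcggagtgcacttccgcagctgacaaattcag
Egr2 (chr10:67537749-67537868, plus strand): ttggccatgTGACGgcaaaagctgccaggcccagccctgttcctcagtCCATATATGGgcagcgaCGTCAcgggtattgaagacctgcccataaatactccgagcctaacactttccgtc
Atf3 (chr1:191183334-191183453, minus strand): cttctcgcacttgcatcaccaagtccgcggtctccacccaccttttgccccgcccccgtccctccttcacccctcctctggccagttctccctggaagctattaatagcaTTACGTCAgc

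Over the 250 bases before the start, 8 of the 10 genes had a sequence in the RefSeq promoter table, all but Egr1 and Fosl1. The half-site TGACG stood on either strand in 5 of these 8 (Fos, Fosb, Junb, Egr2 and Atf3), against 17.9% of all 27025 promoters and 26.3% of the 10329 promoters of tested genes. Shares of the other motifs are given for all promoters, then for those of tested genes. The TATAAA box in Fos was shared by 13.0% and 7.18%, and TGACATCA in Jun by 3.02% and 1.42%. TTACGTCA in Atf3 was shared by 0.477% and 0.716%, and the CArG box, the site of SRF, in Egr2 by 1.4% and 1.15%. GCGGGGGCG stood in Fosb and in Fosl2, and in 2.56% and 4.58%. None of the 8 held the AP-1 site TGACTCA (4.43% and 3.3%), the full CRE TGACGTCA (1.62% and 2.69%) or the EGR site GCGTGGGCG (0.54% and 0.949%). Jund held no match to any motif searched. TGACATCA and TTACGTCA were searched because they were known from these promoters. A match describes the letters in this window and not binding of a factor, and bases further upstream were not searched.

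**Figure D1:**
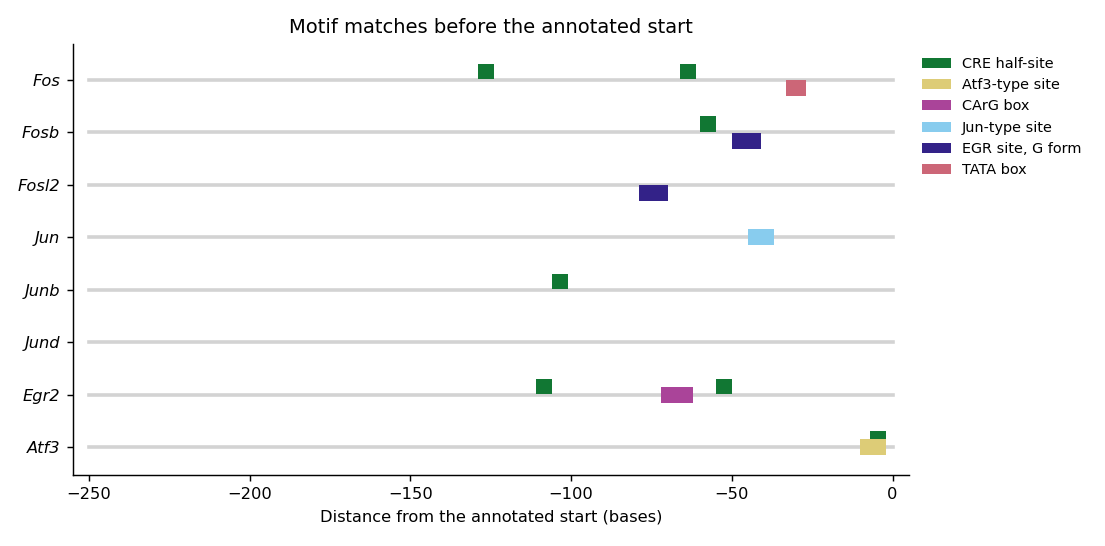
Positions of the motif matches in the 250 bases before the annotated start (x axis, bases) of the 8 genes with a sequence, one row per gene. Half-sites (green) stand in Fos, Fosb, Junb, Egr2 and Atf3, and the row of Jund is empty.

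Against HSCs, 8 of the 9 tested genes were higher in NASH-fib and the same 8 were higher in CCl4-fib, and none was lower. A gene was called where its log2 fold change was at least 1 in size and its adjusted p was under 0.05 (limma, Benjamini-Hochberg over all tested genes). Among all tested genes this rule called 8.23% higher and 4.30% lower in NASH-fib, and 16.2% higher and 11.7% lower in CCl4-fib. In each of the 8 genes all fibroblast libraries lay above all HSC libraries, whereas 12.7% of tested genes lay fully above HSCs in NASH-fib and 27.8% in CCl4-fib. The median log2 fold change of the 9 genes was 3.49 in NASH-fib and 3.50 in CCl4-fib, beside -0.02 and 0.18 over all tested genes. As the genes were chosen with earlier results known, these counts and shares are a description and not an independent test. Both comparisons used the same HSC libraries, and in bulk RNA fewer cells with a transcript and less RNA per cell cannot be told apart. HSC replicate 2 and NASH-fib replicate 1 carried the same label date, also that of CCl4-fib replicate 1, and their deviations from the group means correlated across genes with r = 0.645, the highest of any pair of libraries from different groups. NASH-fib replicate 1 correlated more with HSC replicate 2 (Pearson r = 0.793 across genes) than with NASH-fib replicate 2 (0.768), and most with NASH-fib replicate 3 (0.815). With both left out, 8 genes were called higher in NASH-fib and 9 in CCl4-fib. Values below are the deposited scaled counts, in which every library was brought to the same total.

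**Figure D2:**
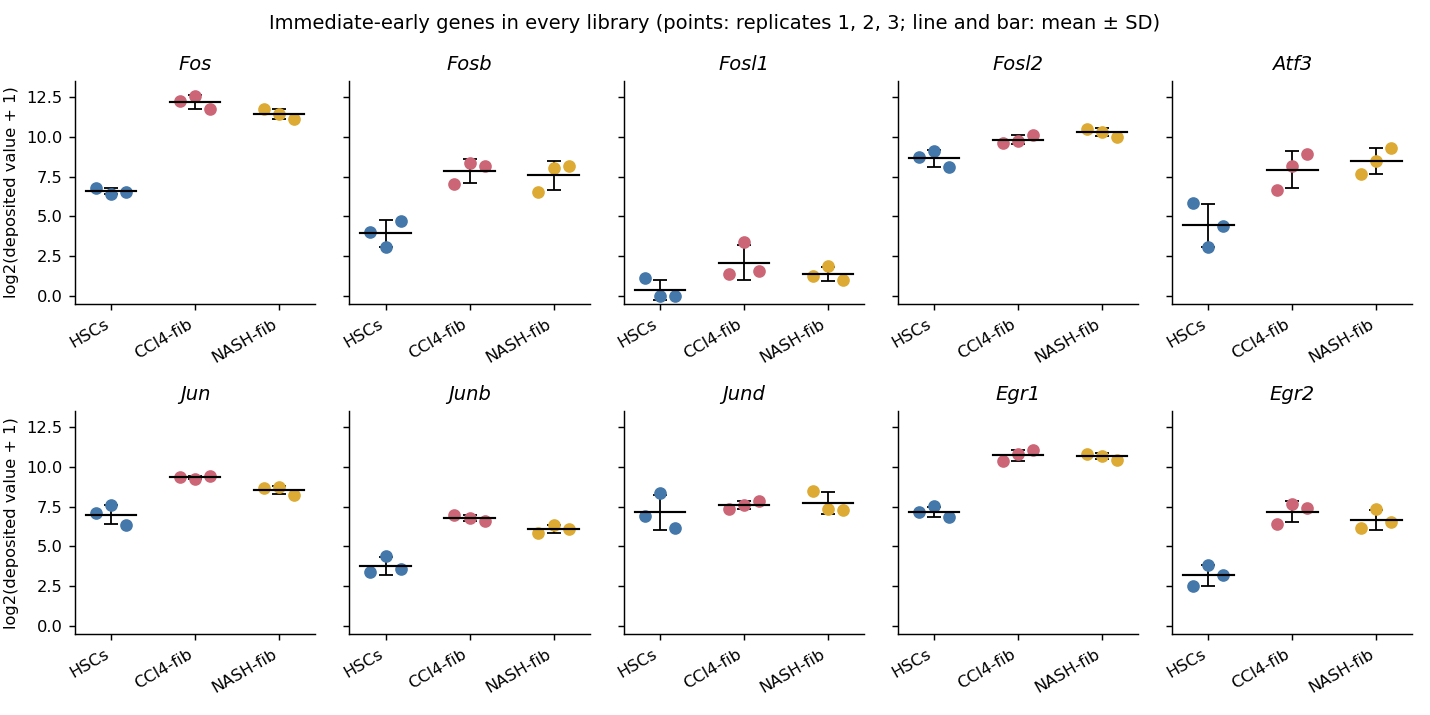
Level of each of the 10 genes in every library, as log2 of the deposited value plus 1 (y axis), for HSCs, CCl4-fib and NASH-fib (points are replicates 1, 2 and 3, lines and bars are the mean ± SD of the log2 values). The fibroblast points stand clear of the HSC points in 8 genes and overlap them in Jund and Fosl1.

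Fos had the largest log2 fold change of the 9 genes in both comparisons with HSCs. Fos (chr12:85473901-85477270, 4 exons), the prototype inducible partner of JUN, was 108, 84.5 and 92.1 in HSC replicates 1, 2 and 3, 4763, 6128 and 3392 in the CCl4-fib libraries, and 3399.8, 2729.8 and 2225 in the NASH-fib libraries. The 6 fibroblast libraries thus stood far above the HSC libraries, while the lowest CCl4-fib library and the highest NASH-fib library overlapped narrowly. Means were 94.7 ± 11.8, 4761 ± 1368 and 2785 ± 589 (SD, n = 3 libraries each). On the log2 scale Fos was higher by 5.60 for CCl4-fib against HSCs (95% interval 4.87 to 6.34, adjusted p = 7.41e-06) and 4.85 for NASH-fib against HSCs (4.12 to 5.58, adjusted p = 1.67e-05).

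Per kb of exon, Fos ranked between 5199 and 5881 among the genes of the HSC libraries and between 100 and 474 in the fibroblast libraries. The counting kept at most 3 reads per position, and Fos reached 3.45 reads per exonic base in CCl4-fib replicate 2. In all, 277 genes reached 3 or more reads per base in at least 1 library. The part of that limit in the Fos values was not tested.

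Fosb (chr7:19302696-19310045, 4 exons), a close paralog of Fos, was 15.2, 7.28 and 25.1 across the HSC libraries, 128, 328 and 286 across CCl4-fib and 91.1, 263 and 284 across NASH-fib. No fibroblast library overlapped the HSCs, and replicate 1 was the lowest of its group in both fibroblast groups. Fosb was higher by 3.92 on the log2 scale in CCl4-fib (2.57 to 5.28, adjusted p = 0.00108) and 3.65 in NASH-fib (2.29 to 5.005, adjusted p = 0.00262).

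Fosl2 (chr5:32136472-32157839, 4 exons), which encodes FRA-2, a slower and longer-lived FOS protein, was 430.2, 546 and 268 across the HSC libraries, 779, 848 and 1109.6 across CCl4-fib and 1463, 1249.6 and 1028 across NASH-fib. Fosl2 was already well expressed in HSCs, and its log2 fold changes were the smallest of the 3 tested FOS genes. They were 1.63 in NASH-fib (0.85 to 2.41, adjusted p = 0.0109) and 1.18 in CCl4-fib (0.40 to 1.96, adjusted p = 0.0307). The CCl4-fib call was lost in 10 of 22 alternative analyses, among them edgeR with TMM scaling (1.01), the removal of any 1 CCl4-fib library (1.03 to 1.28) and the removal of HSC replicate 1 (1.24) or 3 (0.89).

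Fosl1 (chr19:5447698-5455938), which encodes FRA-1, was at the limit of detection. It was covered by 1, 0 and 0 reads in HSCs, 2, 11 and 2 reads in CCl4-fib, and 1, 3 and 1 reads in NASH-fib. No fold change is given, as HSCs and NASH-fib held 3 reads or fewer in every library. Fosl1 overlaps Ccdc85b on the other strand, and reads were counted on both strands, so reads of the pair cannot be told apart.

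HSC and fibroblast libraries did not overlap in the shares of Fos and Fosl2 within the FOS family. Per kb of exon, Fos took 38.4% ± 8.02 of the family total in HSCs (29.8 to 45.7%), 90.5% ± 4.01 in CCl4-fib (85.9 to 93.1%) and 82.9% ± 2.42 in NASH-fib (80.9 to 85.6%). Fosl2 took 57.6% in HSCs (47.4 to 68.7%), 6.67% in CCl4-fib (4.56 to 10.0%) and 13.3% in NASH-fib (13.1 to 13.4%). No pair of groups overlapped in either share. Fos and Fosl2 made up most of the family total in every library, so their shares nearly mirror each other. The level of Fosl2 itself was higher in the fibroblasts, at 70.8 per kb in HSCs, 156 in CCl4-fib and 213 in NASH-fib. The Fosb share overlapped between all groups, at 1.42 to 6.90% in HSCs, 1.38 to 4.02% in CCl4-fib and 1.27 to 5.72% in NASH-fib, as did that of Fosl1. With 3 libraries against 3, an exact permutation test cannot give a two-sided p below 0.1. The family total per kb was 121 in HSCs, 2504 in CCl4-fib and 1604 in NASH-fib.

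**Figure D3:**
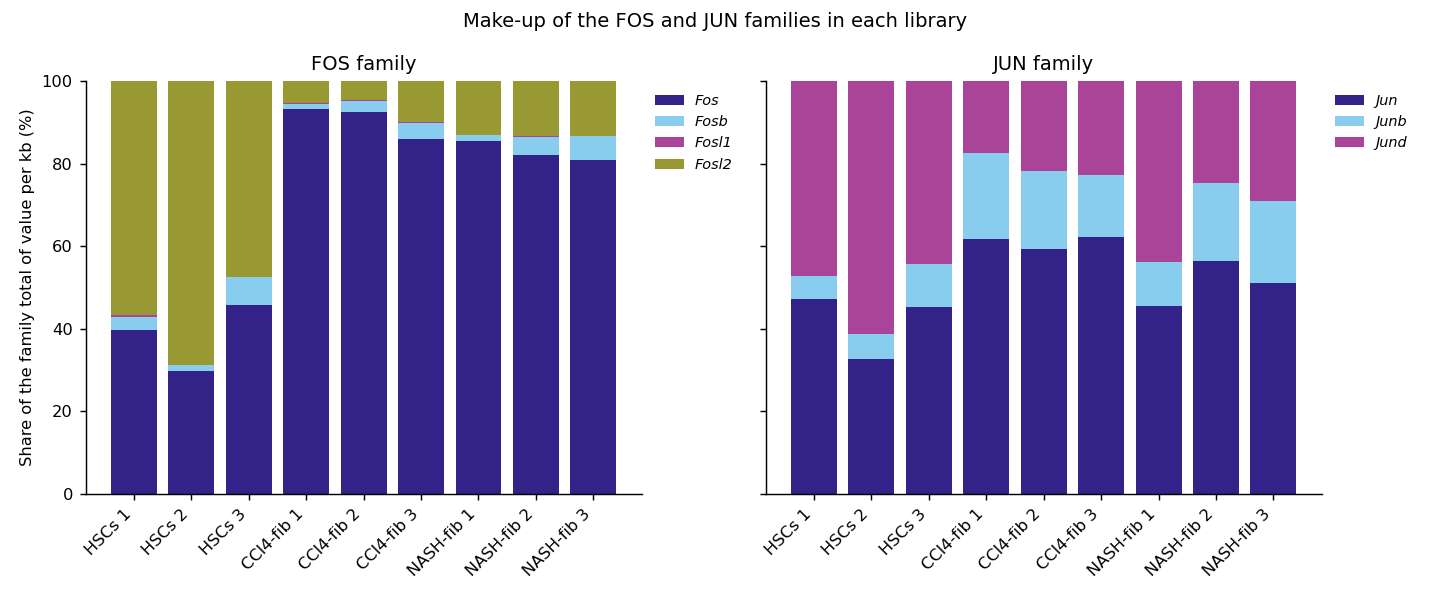
Share of each gene in the FOS family total (left) and the JUN family total (right) of the deposited value per kb of exon (y axis, percent), in each of the 9 libraries (bars). Fosl2 is the larger part of the FOS bar in every HSC library and Fos is at least 80.9% of it in every fibroblast library.

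Jun and Junb rose in both fibroblast groups, and Jund did not pass the test in either. Jun (chr4:95049036-95052222, 1 exon), the main activating partner in AP-1, was 134, 191 and 81.3 across the HSC libraries, 648, 595 and 696 across CCl4-fib and 416, 420.4 and 306 across NASH-fib. The 3 groups did not overlap, with NASH-fib between HSCs and CCl4-fib. Against HSCs, Jun was higher by 2.33 on the log2 scale in CCl4-fib (1.504 to 3.15, adjusted p = 0.00123) and 1.55 in NASH-fib (0.73 to 2.37, adjusted p = 0.0190). The NASH-fib call was lost in 5 of 22 alternatives, among them the removal of HSC replicate 1, HSC replicate 3 or NASH-fib replicate 2. An antisense gene, Junos, overlaps Jun, and its reads cannot be told apart from those of Jun.

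Junb (chr8:84976909-84978748, 1 exon), a weaker activator that can restrain Jun, was 9.35, 20.4 and 10.8 across the HSC libraries, 125, 109.7 and 96.4 across CCl4-fib and 57.1, 81.05 and 67.8 across NASH-fib. As with Jun, NASH-fib lay between the other groups with no overlap. Its log2 fold change against HSCs was 3.01 in CCl4-fib (2.02 to 4.00, adjusted p = 0.000788) and 2.33 in NASH-fib (1.34 to 3.31, adjusted p = 0.00564).

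Jund (chr8:70697739-70700616, 1 exon), the JUN gene known for expression in resting cells, was 122, 325 and 71.7 across the HSC libraries, 165, 198 and 231 across CCl4-fib and 363, 166 and 157 across NASH-fib. All 3 groups overlapped, and the high values came from HSC replicate 2 and NASH-fib replicate 1. The log2 fold change was 0.47 in CCl4-fib (-0.76 to 1.69, adjusted p = 0.553) and 0.57 in NASH-fib (-0.65 to 1.80, adjusted p = 0.654), intervals that include a change of more than 1 and a small fall. These 2 libraries, which deviated together across genes and share a label date, had the lowest read totals, 3071070 and 3289758. With both left out, an alternative chosen after the data were seen, Jund was called higher in CCl4-fib (1.06, adjusted p = 0.0383), whereas with HSC replicate 2 alone left out it was not (1.06, adjusted p = 0.151). Reads of an antisense gene, Gm11175, cannot be told apart from those of Jund.

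In the JUN family, Jund held 51.0% of the total per kb in HSCs (44.3 to 61.4%), 20.7% in CCl4-fib (17.4 to 22.8%) and 32.5% in NASH-fib (24.6 to 43.8%). Jun held 41.7%, 61.1% and 51.0%, and Junb 7.37%, 18.2% and 16.4%, in the same order of groups. The Jund share was lower in every fibroblast library than in any HSC library, though NASH-fib replicate 1 (43.8%) lay just under the lowest HSC library (44.3%).

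Both EGR genes rose, by 11.2- to 15.8-fold on the log2(value + 1) scale. Egr1, which encodes a zinc finger factor of the serum response, was 140.3, 183 and 116 across the HSC libraries, 1322, 1815 and 2112 across CCl4-fib and 1832, 1669.9 and 1411 across NASH-fib. The fibroblast groups overlapped each other and stood well clear of HSCs. The log2 fold change was 3.57 in CCl4-fib (2.85 to 4.29, adjusted p = 5.14e-05) and 3.49 in NASH-fib (2.77 to 4.21, adjusted p = 8.49e-05).

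Egr2 (chr10:67537869-67542188, 2 exons), better known for its role in Schwann cells and hindbrain, was 4.68, 13.1 and 8.37 across the HSC libraries, 84.9, 205 and 168 across CCl4-fib and 69.3, 166 and 90.4 across NASH-fib. The HSC values rested on 4, 9 and 7 reads. The log2 fold change was 3.99 in CCl4-fib (2.77 to 5.20, adjusted p = 0.000525) and 3.49 in NASH-fib (2.27 to 4.71, adjusted p = 0.00179).

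Atf3 (chr1:191170297-191183333, 4 exons) was the most variable of the 9 tested genes within groups. It was 54.9, 7.28 and 20.3 across the HSC libraries, 99.2, 287 and 491 across CCl4-fib and 203, 348 and 634 across NASH-fib. The lowest fibroblast library still lay above the highest HSC library, but the spread within each group was wide. The log2 fold change was 3.50 in CCl4-fib (1.78 to 5.21, adjusted p = 0.00727) and 4.05 in NASH-fib (2.34 to 5.77, adjusted p = 0.00556). The residual SD on the log2 scale was 1.15 for Atf3, larger than in 81.0% of tested genes, against 0.320 for Fos, 0.297 for Egr1 and a median of 0.682 over all tested genes.

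The labels carry a date for each library, whose meaning the sources used here do not give, and 1 date was shared by a library of each group. With the date as a term in the fit, 7 of the 9 genes were called higher in CCl4-fib and 4 in NASH-fib, namely Fos, Fosb, Egr1 and Atf3. Calls over all 13651 tested genes also fell with this term. They went from 1124 to 549 higher in NASH-fib and from 2209 to 1422 higher in CCl4-fib. Log2 fold changes of the 4 genes that lost their call in NASH-fib were then 2.90 for Egr2, 1.96 for Junb, 1.48 for Fosl2 and 1.38 for Jun, all still above 0.

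**Figure D4:**
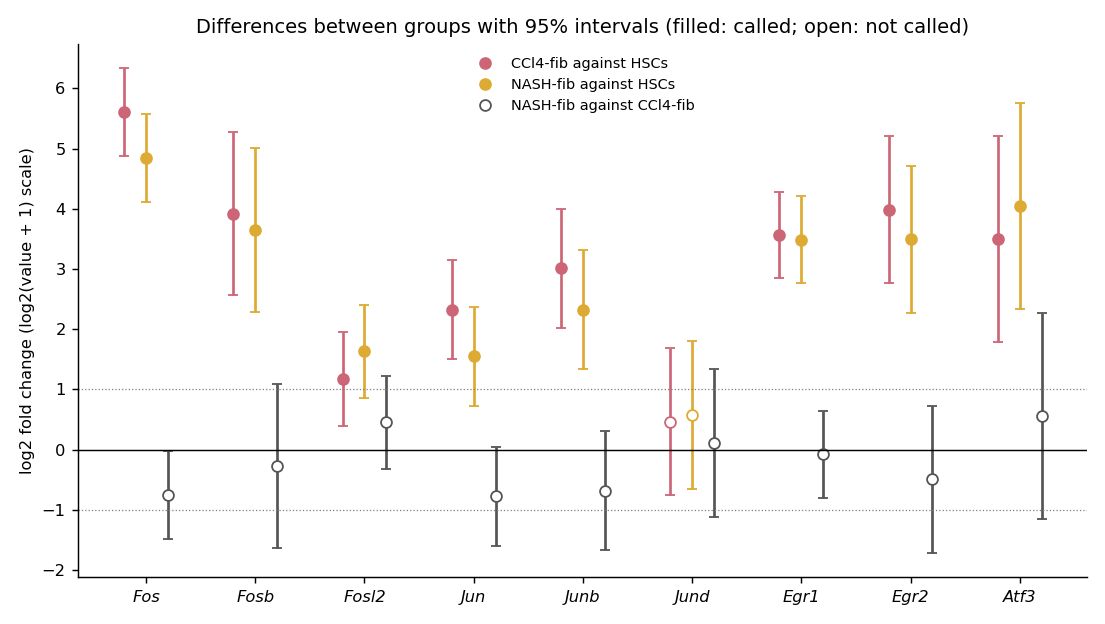
Log2 fold change of the 9 tested genes (y axis, log2(value + 1) scale) with 95% intervals in the 3 comparisons (filled points were called, open points were not, dotted lines mark 1 and -1). Points against HSCs lie between 1.18 and 5.60 for 8 genes, and the grey points for NASH-fib against CCl4-fib lie between -0.78 and 0.56.

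Ordered by level per kb of exon, the genes changed places between HSCs and fibroblasts. In HSCs, Fosl2 (70.8), Jund (60.1), Egr1 (47.8), Fos (45.4) and Jun (42.6) came first, and each overlapped the next in its library range. Atf3 (14.0), Junb (7.35), Fosb (4.21) and Egr2 (2.95) followed with overlapping ranges, and Fosl1 (0.230) lay apart below them. In both fibroblast groups Fos and then Egr1 came first, each apart from the next, with levels of 2280 and 570.4 in CCl4-fib and of 1334 and 534 in NASH-fib. Next came Jun (203) in CCl4-fib and Fosl2 (213) in NASH-fib, and from there to Egr2 each gene overlapped the next in both groups.

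NASH-fib and CCl4-fib, the pair isolated in the same way, were set against each other to ask whether the 2 models of fibrosis differed in these genes. Of the 9 tested genes, none was called in either direction by limma, while among all tested genes 4.97% passed as higher and 5.66% as lower in NASH-fib. Nor was any called by edgeR or DESeq2, and at an unadjusted p under 0.05, 1 gene (Fos, lower) passed, beside 28.9% of all tested genes. The median log2 fold change of the 9 genes was -0.27, beside -0.11 over all tested genes. TMM scaling moved the median of all genes by 0.18, so values here are read relative to it. The median of the 9 genes relative to that of all genes was -0.16 under the deposited scaling. It was the same under each of the 3 others tried. That was nearly fixed in advance, as a scaling shifts all genes of a library almost alike.

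The difference in Fos was -0.75 (95% interval -1.49 to -0.02, adjusted p = 0.164), and -0.57 with TMM scaling. Jun (-0.78, -1.60 to 0.05, adjusted p = 0.196) and Junb (-0.68, -1.67 to 0.30, adjusted p = 0.337) were lower in 3 of 3 NASH-fib libraries than in any CCl4-fib library, as were 22.0% of all tested genes. Values were -0.27 for Fosb (-1.63 to 1.08), -0.49 for Egr2 (-1.71 to 0.73) and -0.08 for Egr1 (-0.80 to 0.64), where Egr1 was 0.11 with TMM scaling. Fosl2 (0.45, -0.33 to 1.23), Atf3 (0.56, -1.16 to 2.27) and Jund (0.11, -1.12 to 1.34) had values above 0. The interval of Egr1 alone stayed within 1 in size, and for the other 8 genes 3 libraries per group could not show whether a difference of that size was present.

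Of 40 tested other immediate-early genes, 9 were higher and 1 lower in NASH-fib than in HSCs, and 17 were higher and 2 lower in CCl4-fib. Beside these counts, 8.23% of all tested genes were higher and 4.30% lower in NASH-fib, and 16.2% and 11.7% in CCl4-fib. With label date as a term, 5 of the 40 were higher and none lower in NASH-fib. Of the 2 lower in CCl4-fib, 1 was left without HSC replicate 1, HSC replicate 2 or any 1 CCl4-fib library, and 2 were lower in NASH-fib without HSC replicate 3. Their median log2 fold change was 0.79 in NASH-fib and 1.13 in CCl4-fib, beside -0.02 and 0.18 over all tested genes. Nr4a1, a nuclear receptor of the growth factor response, averaged 14.1 ± 2.15 in HSCs, 653 ± 181 in CCl4-fib and 463 ± 165 in NASH-fib, with log2 fold changes of 5.403 (adjusted p = 1.93e-05) and 4.89 (adjusted p = 4.26e-05). Btg2, an antiproliferative gene, averaged 345, 4574 and 6527, and Cyr61, a matricellular target of YAP and SRF, averaged 201.5, 1208 and 1604. Gem, a small GTPase that inhibits calcium channels, fell in both, from 1372 to 245 and 269.9.

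Against CCl4-fib, 5 of the 40 were lower in NASH-fib (Ier2, Ier3, Klf10, Zfp36 and Tnfaip3) and none was higher. Of all tested genes, 5.66% were lower and 4.97% higher. Ier3, a stress-response gene that modulates cell survival, averaged 59.4 in HSCs, 1364 ± 648 in CCl4-fib and 124 ± 30.2 in NASH-fib, a log2 fold change of -3.37 between the fibroblast groups (adjusted p = 0.00562). Zfp36, which encodes the mRNA-destabilising protein TTP, averaged 363, 2775 ± 1344 and 610.2 ± 141 (-2.06, adjusted p = 0.0222), and Ier2 26.3, 293 ± 121 and 77.9 ± 21.9 (-1.85, adjusted p = 0.0326). The count of 5 fell to 1 without CCl4-fib replicate 2 or NASH-fib replicate 3, to 2 without CCl4-fib replicate 1 or with label date as a term, and to 3 without NASH-fib replicate 1, and was 8 with DESeq2.

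**Figure D5:**
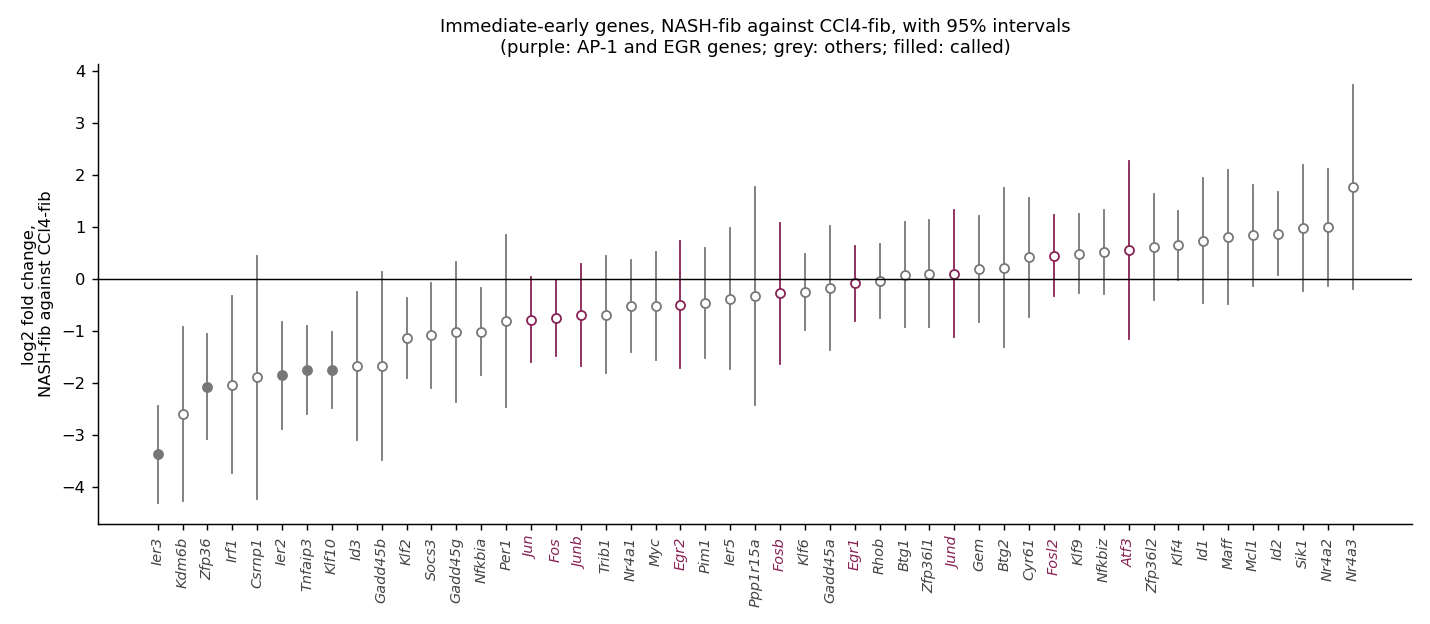
Log2 fold change of NASH-fib against CCl4-fib (y axis) with 95% intervals for the 9 tested AP-1 and EGR genes (purple) and 40 other immediate-early genes (grey), ordered by value (filled points were called). The purple points lie between -0.78 and 0.56, and the 5 filled grey points run down to -3.37 for Ier3.

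Relatives of these genes were measured beside them. Of 22 tested other bZIP genes, none was higher in either fibroblast group, 1 was lower in NASH-fib and 3 in CCl4-fib, with medians of -0.17 and -0.36. Among all tested genes, 8.23% were higher and 4.30% lower in NASH-fib, and 16.2% and 11.7% in CCl4-fib. The lower counts lay near these shares and are not read as a trait of the list. Maf, a large MAF protein, was the gene lower in NASH-fib (-2.23, adjusted p = 0.0198), and Cebpa and Cebpg were among those lower in CCl4-fib. The NASH-fib call was lost without HSC replicate 1, HSC replicate 2 or NASH-fib replicate 3, and with edgeR, the replicate block or label date as a term, and without NASH-fib replicate 1 the count was 2. Of 4 tested genes around the EGR family, Egr3 and Wt1 were higher in both, beside 8.23% of all tested genes in NASH-fib and 16.2% in CCl4-fib. Egr3, an EGR paralog, had 0, 0 and 3 reads across the HSC libraries, 17, 48 and 45 across CCl4-fib and 25, 54 and 29 across NASH-fib. Wt1, a zinc finger factor of mesothelium that is also in the mesothelial marker list below, averaged 48.8 ± 10.8, 1371 ± 443 and 414 ± 46.1. It was the 1 gene of this list called between the fibroblast groups (-1.67, adjusted p = 0.0215), where 5.66% of all tested genes were lower. That call was lost when replicate 2 or 3 of CCl4-fib or replicate 3 of NASH-fib was removed and with label date as a term, and without NASH-fib replicate 2 the count was 2.

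The kinases and SRF partners upstream of these genes had counts that moved when single libraries were left out. Of 33 tested, 1 was higher (Mapk13) and 1 lower (Elk3, an ETS partner of SRF) in NASH-fib, and 2 were higher and 3 lower in CCl4-fib, with medians of -0.24 and -0.11. Among all tested genes the rule called 8.23% higher and 4.30% lower in NASH-fib, and 16.2% and 11.7% in CCl4-fib. In CCl4-fib the 3 lower became 0 without HSC replicate 1 or any 1 CCl4-fib library, 1 without HSC replicate 2 and 5 without NASH-fib replicate 1, and the 2 higher became 1 without HSC replicate 1, NASH-fib replicate 3 or any 1 CCl4-fib library. The 1 higher in NASH-fib became 3 without HSC replicate 2 and 2 without NASH-fib replicate 3. Elk3 averaged 438 in HSCs, 187 in CCl4-fib and 95.7 in NASH-fib (-2.16 in NASH-fib, adjusted p = 0.00539). Braf, the kinase above MEK, was the 1 gene of the 33 called between the fibroblast groups, where 4.97% of all tested genes were higher and 5.66% lower. Braf was 525 ± 58.6 in CCl4-fib and 1259.8 ± 147 in NASH-fib (1.26, adjusted p = 0.0465). Its call was lost in 9 of 22 alternatives, among them the removal of any 1 CCl4-fib or NASH-fib library, the replicate block and label date as a term.

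Calls among feedback inhibitors of MAP kinase signaling, which do not all act on ERK, were few and went in both directions. Of 14 tested dual-specificity phosphatases and Sprouty-family genes, 3 were higher and 2 lower in NASH-fib and 2 were higher and 2 lower in CCl4-fib, with medians of -0.21 and -0.47. Those higher were Dusp8 and Dusp14 in both groups and Dusp1 in NASH-fib. Those lower were Spry1 in both groups, Dusp7 in NASH-fib and Spred2 in CCl4-fib. The shares of all tested genes were 8.23% higher and 4.30% lower in NASH-fib, and 16.2% and 11.7% in CCl4-fib. The CCl4-fib counts lay near these shares and are not read as a trait of the list. The 2 lower in NASH-fib became 1 without HSC replicate 1, HSC replicate 3, NASH-fib replicate 2, NASH-fib replicate 3 or any 1 CCl4-fib library, and the 2 higher in CCl4-fib became 1 without HSC replicate 2, CCl4-fib replicate 1 or CCl4-fib replicate 3. Dusp1, a phosphatase of p38 and JNK that is itself an immediate-early gene, averaged 677 ± 127 in HSCs, 1319.7 ± 398 in CCl4-fib and 1898 ± 126 in NASH-fib, and was called in NASH-fib (1.502, adjusted p = 0.0115). Spry1, an inhibitor of receptor tyrosine kinase signaling, fell from 829.96 ± 69.5 in HSCs to 68.9 ± 8.45 and 183 ± 105 (-3.57 and -2.33).

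Many genes known as AP-1 targets were higher in the fibroblasts. Of 19 tested, 9 were higher and 1 lower in NASH-fib and 13 were higher and none lower in CCl4-fib, with medians of 2.13 and 2.43 that did not move when genes at 3 reads or fewer in every HSC library were set at their lower bound. The shares among all tested genes were 8.23% higher and 4.30% lower in NASH-fib, and 16.2% and 11.7% in CCl4-fib. Mmp3, stromelysin-1, averaged 3.40 in HSCs, 739 ± 428 in CCl4-fib and 4299.6 ± 1442 in NASH-fib (8.21 and 10.86). Ptgs2, cyclooxygenase-2, had 0, 3 and 1 reads in HSCs and averaged 262 ± 149 and 339 ± 58.3 in the fibroblast groups. Mmp13, collagenase-3, was the 1 target higher in NASH-fib than in CCl4-fib, beside 4.97% of all tested genes. It was 569.6, 471 and 179 against 2.38, 0 and 3.82. Ccl2, a monocyte chemokine, and Plaur, the urokinase receptor, were lower in NASH-fib than in CCl4-fib (-2.66, adjusted p = 0.00562, and -2.65, adjusted p = 0.0429), beside 5.66% of all tested genes. These 2 became 1 when any NASH-fib library, CCl4-fib replicate 1 or CCl4-fib replicate 2 was left out, and the 1 higher became 2 without HSC replicate 1 and 3 without HSC replicate 2. The 1 target lower in NASH-fib than in HSCs was lost without HSC replicate 1 or 3, and with label date as a term 5 were higher there.

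Of 12 tested EGR targets, 3 were higher in NASH-fib (Pdgfa, F3 and Thbs1) and 6 in CCl4-fib, and none was lower in either, with medians of 0.84 and 1.37. Of all tested genes, 8.23% were higher and 4.30% lower in NASH-fib, and 16.2% and 11.7% in CCl4-fib. With 12 genes, the lack of lower calls is not read as a trait of the list. The 6 became 3 without HSC replicate 1, CCl4-fib replicate 1 or CCl4-fib replicate 2 and with label date as a term. F3, tissue factor, averaged 5.69 ± 3.21 in HSCs, 78.1 ± 41.4 in CCl4-fib and 211 ± 60.2 in NASH-fib. Thbs1, thrombospondin-1, averaged 99.1 ± 44.0, 2403 ± 1343 and 965 ± 191. Fn1, fibronectin, was higher in CCl4-fib than in the other groups, at 7753 ± 1544 against 1392 ± 240.4 in HSCs and 1476 ± 110.1 in NASH-fib (-2.37 for NASH-fib against CCl4-fib, adjusted p = 0.00562, the 1 target called there, beside 5.66% of all tested genes called lower). Without NASH-fib replicate 2, 2 targets were lower between these groups.

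The genes whose profile was most like the mean of the tested AP-1 and EGR genes were Bnc2, Vgll3, Col4a6, Tnfaip6 and Vim, with Pearson r of 0.996 to 0.992 over 9 libraries. Bnc2, a zinc finger gene, had 1, 3 and 0 reads in HSCs and averaged 209 in CCl4-fib and 162 in NASH-fib. Because the libraries fall into HSCs and fibroblasts, r mainly ranks genes by how cleanly they separate these, and no p is given.

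Heat shock genes, which are induced by cell stress, were measured beside these results. Of 14 tested, Hspa1a, Hspa1b and Hspb1 were higher in both fibroblast groups and none was lower, with medians of 0.15 and 0.36. Of all tested genes, 8.23% were higher and 4.30% lower in NASH-fib, and 16.2% and 11.7% in CCl4-fib. Hspa1a was 28.1, 127 and 17.9 across the HSC libraries, 325, 300.2 and 300.5 across CCl4-fib and 338, 331 and 121 across NASH-fib, so that NASH-fib overlapped HSCs, as it did in Hspa1b. The 3 higher in NASH-fib became 1 without HSC replicate 1, HSC replicate 3, NASH-fib replicate 1, NASH-fib replicate 2 or any 1 CCl4-fib library and with edgeR, and 0 with label date as a term. The summed level of the 14 was 14687 to 17474 in HSCs, 18476 to 20905 in CCl4-fib and 17932 to 19459 in NASH-fib. None was called between the fibroblast groups, where 4.97% of all tested genes were higher and 5.66% lower in NASH-fib. The part of the heat shock genes in the results was not tested.

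Markers of the labelled and other cell types also moved with the groups. Lrat, the retinol-esterifying enzyme of stellate cells, was 10234, 14894 and 7070 in HSCs and 95.4 to 458 in the fibroblast libraries, and Col1a1 was 452 to 968 in HSCs and 3738 to 11375 in fibroblasts. Of 9 tested quiescent stellate markers, 6 were lower in NASH-fib and 5 in CCl4-fib than in HSCs, and none was higher. Of 10 activated fibroblast markers, 7 were higher in NASH-fib and 8 in CCl4-fib, and Postn was lower in NASH-fib. Col1a1, Col1a2 and Col3a1 were lower in NASH-fib than in CCl4-fib. Among all tested genes, 8.23% were higher and 4.30% lower in NASH-fib than in HSCs, and 16.2% and 11.7% in CCl4-fib. Of 15 hepatocyte markers, 13 were lower in CCl4-fib and none passed in NASH-fib against HSCs, and their summed level was 31432 to 59576 in HSCs, 2831 to 4461 in CCl4-fib and 10737 to 42704 in NASH-fib. Of 10 endothelial markers, 8 were lower in NASH-fib and 10 in CCl4-fib than in HSCs, with sums of 7836 to 16769 in HSCs, 1199 to 4010 in NASH-fib and 380 to 418 in CCl4-fib. All 7 mesothelial markers were higher in both fibroblast groups, with sums of 613 to 1002 in HSCs, 16177 to 22367 in CCl4-fib and 25265 to 31917 in NASH-fib. Of 8 smooth muscle markers, 6 were higher in NASH-fib and 7 in CCl4-fib, with sums of 133 to 446 in HSCs, 3351 to 14883 in CCl4-fib and 6064 to 22194 in NASH-fib. Between the fibroblast groups, 4 of 8 tested neutrophil markers were higher in NASH-fib, where the list summed to 624 to 6570 against 12.7 to 142 in CCl4-fib. So were 9 of 15 hepatocyte, 8 of 10 endothelial and 3 of 10 macrophage markers. The same held for 2 of 4 tested lymphocyte and 2 of 6 tested cholangiocyte markers. Wt1 of the mesothelial list and Smtn of the smooth muscle list were lower in NASH-fib. Among all tested genes, 4.97% were higher and 5.66% lower. No neutrophil marker passed the test against HSCs, where the sums were 51.4 to 1088. Of 10 macrophage markers, 3 were lower in NASH-fib and 7 in CCl4-fib than in HSCs, with sums of 3734 to 13656 in HSCs, 780 to 2713 in NASH-fib and 265 to 459 in CCl4-fib. Of 10 lymphocyte markers 4 were tested and Ptprc alone was called against HSCs, lower in CCl4-fib. Of 6 tested cholangiocyte markers, 6 were higher in NASH-fib and 4 in CCl4-fib, with sums over all 7 of 70.1 to 250 in HSCs, 3488 to 4752 in CCl4-fib and 6065 to 11776 in NASH-fib. The defining marker Krt19 went against these sums between the fibroblast groups, though it was not called. Krt19 was 2174, 2699 and 771 across CCl4-fib and 53.0, 469 and 348 across NASH-fib. The list also holds Spp1, which is in the activated fibroblast and AP-1 target lists too. The defining markers of the other cell types (Alb, Stab2, Msln, Myh11, S100a8, Adgre1, Ptprc and Krt19) were above 0 in every library. The part of these cells in the AP-1 and EGR values was not tested.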

How the data were processed

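The study sequenced SMARTer-amplified total RNA single-end, aligned reads to mm10 with STAR and counted them over RefSeq exons with HOMER. Per the file headers, both strands were counted, at most 3 reads per position were kept, and DESeq2 was named for 10 libraries, of which 9 had a column used here. The deposited values are a scaled count signal per gene, with nearly the same total in each library (4471988 to 4471995). Median-of-ratios factors, the kind DESeq2 computes, ran from 0.839 to 1.09 relative to library totals. The values were therefore not scaled by such factors. Each value is a whole multiple of what 1 read is worth in its library (100% of values, tolerance 0.015), which gave 3071070 to 5634273 reads on genes per library. The files also hold comparison columns of the authors, which were not used.

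Genes were kept by filterByExpr (minimum count 10, on recovered reads), leaving 13651 of 24453. As the design foresaw for values that are not raw counts, limma 3.58.1 (R 4.3.3, trend) was fitted to log2(value + 1) over all 9 libraries, with Benjamini-Hochberg adjustment over all genes. Fold changes on this scale understate those of low genes. The p-values measure the spread between 3 pools per group. Alternatives were edgeR 4.0.16 and DESeq2 1.42.0 on recovered reads, other scalings, filters and pseudocounts (0.5 and 10), the replicate number or label date as a term, and each library left out. The fit was tested on simulated data. Levels per kb used exonic length. Promoter bases came from a RefSeq table, and exons from GENCODE M21.

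The AP-1 and EGR genes and all gene lists were chosen with earlier results of these data known. Named genes were these 10 and, from each list, up to 3 called genes per direction and comparison with the largest log2 fold change. Others (Mmp13, Ccl2 and the full sets of called genes where counts were 5 or fewer) were named with their values seen, and 1 called gene of the bZIP list is not reported here.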

Additional observations from a re-analysis of the deposited data

How the results depend on the processing

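The count of AP-1 and EGR genes called higher kept within 1.5 times its value under all alternatives but 1. With label date as a term, 4 were called higher in NASH-fib against HSCs (8 in the main fit). Calls higher over all genes fell there from 1124 to 549, and the cause was not tested. Leaving out each library in turn gave 7 to 8 called higher in NASH-fib, 7 to 8 in CCl4-fib and 0 between the fibroblast groups, and no gene was called lower. Replicate numbers did not pair the libraries (r of same-numbered deviations -0.47 to 0.51); with the replicate block, 8 were called higher in NASH-fib, 7 in CCl4-fib (Fosl2 lost) and 0 between the fibroblast groups. With HSC replicate 2 and NASH-fib replicate 1 both left out, chosen after seeing the data, the counts were 8, 9 and 0.

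Of 588 log2 fold changes recomputed over the 9 genes, 554 kept their direction and side of the threshold, 18 lost a call, 1 gained one and 15 changed sign. Fosl1 passed the filter in some alternatives only and is not counted. Each change of sign was in a value that was not called. For NASH-fib against CCl4-fib, Egr1 became 0.084 with DESeq2, 0.099 with edgeR, 0.11 with TMM, 0.027 with upper-quartile and 0.090 with median-of-ratios scaling, and Jund -0.034 with label date. Leaving out 1 library at a time, this comparison ran from -0.27 to 0.072 for Egr1 (above 0 when CCl4-fib replicate 3 or NASH-fib replicate 3 was removed), -0.082 to 1.07 for Atf3 (below 0 when CCl4-fib replicate 1 was), -0.69 to 0.25 for Fosb (above 0 when NASH-fib replicate 1 was) and -0.28 to 0.32 for Jund (below 0 when either replicate 1 was). With the pair named above left out together, Fosb was 0.25 and Jund -0.28. Jund in CCl4-fib against HSCs ran from -0.019 (HSC replicate 3 removed) to 1.06 (HSC replicate 2 removed).

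Counts over all genes moved more. Between the fibroblast groups, 678 passed as higher in NASH-fib and 773 as lower, and the counts ran from 113 (without NASH-fib replicate 3) to 1518 (DESeq2) higher and from 72 (without CCl4-fib replicate 2) to 1161 (DESeq2) lower. Against HSCs, 1124 were called higher in NASH-fib (537 to 1415) and 587 lower (119 to 742), and 2209 higher in CCl4-fib (1078 to 2947) and 1592 lower (906 to 2125). The percentages of all genes called move with them. With edgeR, 802 were called higher and 563 lower between the fibroblast groups.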
